A study of Homo sapiens with 6 samples.

Results

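The nuclear genes for subunits of the mitochondrial respiratory chain and ATP synthase were examined complex by complex, together with a family of complex I assembly factors. They were taken from the RNA table by symbol among protein-coding genes. Symbols starting NDUF gave 40 complex I genes and 8 NDUFAF assembly factors, symbols starting UQCR plus CYC1 gave 10 complex III genes, COX4 to COX8 gave 17 complex IV genes, and ATP5 gave 20 complex V genes. These 95 genes are part of 19881 protein-coding genes with a symbol and of 60624 rows in all.

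The cells were SV-HUC-1, an established human urothelial line immortalised with SV40, used in both groups. Control cells (3 libraries) received a blank solution and exposed cells (3 libraries) received 2,6-dichloro-1,4-benzoquinone (DCBQ), a chlorinated quinone that forms when drinking water is disinfected. Both lasted 3 days, and the labels give no DCBQ concentration. Whether the 3 libraries of a group were grown as separate cultures is not stated, so each p-value reflects how far these particular libraries spread, and that spread may be only technical.

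The respiratory chain sits in the inner mitochondrial membrane. Complex I takes electrons from NADH and complex III passes them from ubiquinol to cytochrome c, on which complex IV reduces oxygen. The protons these complexes pump drive complex V, the ATP synthase. Complexes I, III, IV and V mix a few mitochondrially encoded subunits with many nuclear ones, and assembly factors help to build the complexes without remaining in them. Several nuclear subunits exist as paralogous isoforms whose balance differs between tissues and oxygen levels.

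Expression is given as TPM, the authors' unit, a level scaled for transcript length and library total. TPM keeps no record of sequencing depth, so depth is unknown and no counting interval is given. The epithelial markers KRT7, KRT8, KRT18, KRT19, EPCAM and CDH1 were present, while TP63 was near 0 and UPK3A was listed at 0 in every library. Summed epithelial markers ranged from 5218 to 5463 TPM in the controls and from 6499 to 6836 TPM in DCBQ. Of the 11 tested, 6 rose, among them UPK1B (19.8 to 81.9 TPM) and KRT5 (117 to 303 TPM), and 2 fell, KRT17 (817 to 407 TPM) and KRT7 (1531 to 1373 TPM). Summed fibroblast markers were 6.17 to 7.27 TPM in the controls and 13.9 to 15.9 TPM in DCBQ, all of it COL1A1, with COL1A2, COL3A1, DCN and LUM at 0. Leukocyte markers summed to 0.876 to 1.341 and 2.03 to 2.47 TPM, and endothelial markers to 3.89 to 4.97 and 8.12 to 14.3 TPM. The part of these markers in the results was not tested. In bulk RNA, fewer cells of a type and less RNA per cell cannot be told apart.

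Upstream stretches of 4 genes are shown because they hold examples of 3 of the 5 motifs searched in the members' promoters and include the extremes of the data. ATP5MC1 had the largest increase, NDUFA4L2 the largest decrease, and ATP5ME and NDUFB7 were also higher. Each line gives 100 bases before the gene, 5′ to 3′ on its own strand (RefSeq, GRCh38.p14), with motif matches in capitals. ATP5MC1 is at chr17:48892665-48892764 (plus strand), ATP5ME at chr4:674339-674438 (minus), NDUFB7 at chr19:14572067-14572166 (minus) and NDUFA4L2 at chr12:57240763-57240862 (minus). The capitals mark a cyclic AMP response element (CRE, TGACGTCA) in ATP5MC1, a CRE and then an NRF1 half-site (GCATGCGC, here on the opposite strand) in ATP5ME, and an ETS motif (CCGGAAG) in NDUFB7. NDUFA4L2 held none of the motifs in this stretch.
ATP5MC1: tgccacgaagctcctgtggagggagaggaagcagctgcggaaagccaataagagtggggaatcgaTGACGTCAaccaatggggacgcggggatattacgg
ATP5ME: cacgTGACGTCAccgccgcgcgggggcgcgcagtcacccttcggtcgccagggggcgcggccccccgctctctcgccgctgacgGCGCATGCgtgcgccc
NDUFB7: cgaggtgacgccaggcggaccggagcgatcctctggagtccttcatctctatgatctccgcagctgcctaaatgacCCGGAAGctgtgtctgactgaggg
NDUFA4L2: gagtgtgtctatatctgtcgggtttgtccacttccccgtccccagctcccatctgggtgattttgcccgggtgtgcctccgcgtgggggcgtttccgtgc

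In the values as deposited, 39 of 78 tested subunit genes rose in DCBQ-exposed cells and 5 of 8 NDUFAF assembly factors fell, in a table where most called genes were lower. Genes with a mean of at least 1 TPM over the 6 libraries were tested by limma on log2(TPM + 1), and a gene was called at an adjusted p under 0.05 over all 16734 tested genes. Of all tested genes 52.9% were called, 13.4% higher and 39.5% lower, and the median log2 difference was -0.21. Of the 95 members 86 were tested, of which 40 rose, 14 fell and 32 did not pass. Among the 78 tested subunits 39 rose and 9 fell, which is 50% and 11.5%, while 1 of the 8 NDUFAF genes rose and 5 fell, 12.5% and 62.5%.

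The median log2 difference of the tested subunits was 0.25, which is 0.47 above the median of all tested genes. By complex the median difference was 0.23 for I, 0.14 for III, 0.28 for IV and 0.35 for V, against -0.35 for the NDUFAF genes. The subunit medians stayed positive and the NDUFAF median stayed negative under all 15 alternative settings. The 6 libraries did not overlap between the groups for 59 of the 86 tested members, 44 with DCBQ above and 15 with DCBQ below, in a table where 61.2% of all tested genes did not overlap. The excess of lower genes overall depended on scaling: 74.6% of all calls were lower as deposited, but 49.1% after median-of-ratios scaling and 51.0% after quantile normalization. Median-of-ratios scaling moved the median of all genes from -0.21 to -0.0039, and with it 63 members were higher and 4 lower.

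**Figure D1:**
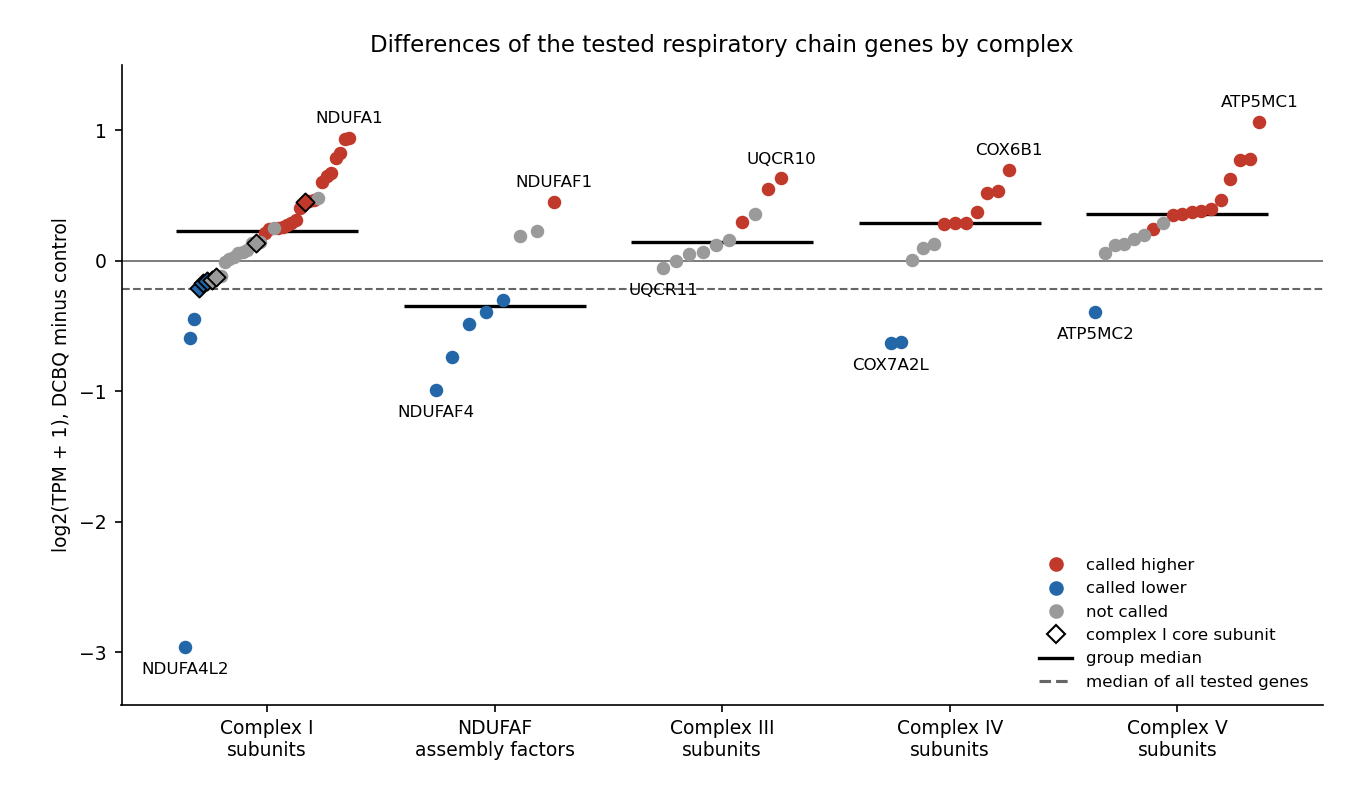
Log2 differences (DCBQ minus control, log2(TPM + 1) scale) of the 86 tested members, 1 point per gene, by complex and for the NDUFAF factors, coloured by call, with diamonds for the complex I core and bars for group medians. The subunit medians lie between 0.14 and 0.35 and the NDUFAF median at -0.35, against -0.21 for all tested genes.

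The summed level of each complex was higher in every DCBQ library than in every control library. Complex I summed to 3119, 3022 and 3227 TPM in control libraries 1, 2 and 3 and to 3748, 3438 and 3780 TPM in DCBQ libraries 1, 2 and 3, a ratio of means of 1.17. Complex III gave 1000.02, 966 and 1000.3 TPM against 1168, 1104 and 1182 TPM, a ratio of 1.16. Complex IV gave 2164, 2074 and 2145 TPM against 2544, 2412 and 2536 TPM, a ratio of 1.17. Complex V differed most, with 2415, 2304 and 2546 TPM against 3324, 3085 and 3213 TPM, a ratio of 1.32. Library 2 was the lowest of its group in every complex, in the controls as well as in DCBQ. These sums give most weight to abundant members and carry no test. All subunits together made up 0.866% ± 0.0277 of control TPM and 1.05% ± 0.0411 of DCBQ TPM (SD, n = 3 libraries per group, as for every mean below).

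Relative to complex I in the same library, complexes III and IV had overlapping levels in both groups and complex V did not. Complex III stood at 31.7 ± 0.592 per 100 TPM of complex I in the controls and 31.5 ± 0.521 in DCBQ, and complex IV at 68.2 ± 1.52 and 68.4 ± 1.604. Complex V moved from 77.5 ± 1.32 to 87.8 ± 2.49 per 100. Such ratios within a library do not depend on the scaling between libraries.

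**Figure D2:**
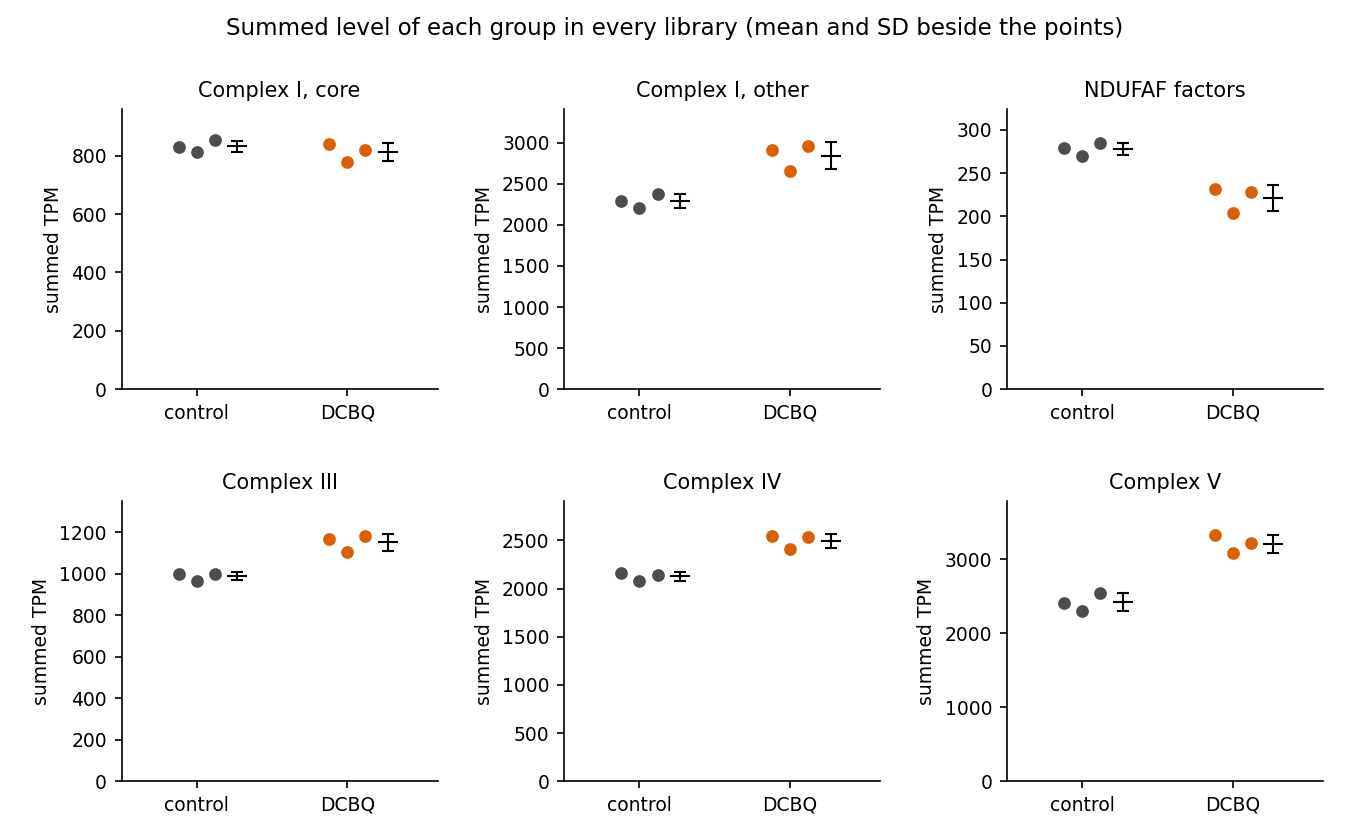
Summed TPM of the complex I core and other subunits, the NDUFAF factors and complexes III, IV and V, 1 point per library, with the group mean and SD beside the points. All sums but the complex I core sit higher or, for NDUFAF, lower in all 3 DCBQ libraries, and the core sums of 831 and 813 TPM overlap.

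Among the genes with complex I symbols, the increases were outside the core subunits, apart from NDUFV2. Of 38 tested complex I genes 18 rose and 6 fell, which is 47.4% and 15.8%. These counts and the complex I sums follow the symbols, and so include NDUFA4, NDUFA4L2 and the readthrough gene NDUFC2-KCTD14. The 7 nuclear core subunits, which hold the flavin, the iron-sulphur clusters and the quinone site, had 1 higher and 3 lower calls. These are 14.3% and 42.9%, near the 13.4% and 39.5% of all tested genes. The core median difference was -0.15, and all 7 genes lay above the median of all tested genes, -0.21. The other 31 tested genes had 17 higher and 3 lower calls (54.8% and 9.68%) and a median of 0.25. The core subunits summed to 831 ± 20.3 TPM in the controls and 813 ± 31.7 TPM in DCBQ, and the others to 2291 ± 82.2 and 2842 ± 161 TPM. The core subunits made up 26.6% ± 0.226 of complex I TPM in the controls and 22.2% ± 0.505 in DCBQ, with no overlap between the libraries.

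Of the core subunits, NDUFV2, an iron-sulphur protein of the NADH-binding module, rose from 98.8, 95.98 and 85.4 TPM to 128, 125 and 130.1 TPM, with every DCBQ library above every control. Its ratio of means was 1.37 (log2 difference 0.45, SE 0.061, limma adjusted p = 0.00044). NDUFS1, which carries several iron-sulphur clusters of the same module, measured 28.9, 28.2 and 28.7 TPM in the controls and 24.0, 25.5 and 24.4 TPM in DCBQ (log2 difference -0.21, SE 0.060, limma adjusted p = 0.020). The difference was small but the groups did not overlap. NDUFS8, which holds a pair of iron-sulphur clusters close to the quinone site, went from 285, 280.2 and 299.9 TPM to 266, 247 and 263 TPM (log2 difference -0.16, limma adjusted p = 0.023). Both decreases lie close to the median of all genes. NDUFS1 turned to 0.03 and NDUFS8 to 0.09 after median-of-ratios scaling, and NDUFS1 also turned positive after quantile normalization (0.08). Neither was called without control library 1 (adjusted p 0.063 and 0.051). The NDUFS1 call was also lost without control library 3 (0.059) or DCBQ library 3 (0.060), and the NDUFS8 call without control library 3 (0.078) or DCBQ library 2 (0.061). Without mitochondrially encoded genes neither was called (0.31 and 0.71), NDUFS1 missed the threshold with a replicate block (0.0503), and NDUFS8 did so with no expression filter (0.057) and after quantile normalization (0.17).

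Of the core subunits that did not pass, NDUFV1, which binds NADH, differed by -0.12 (adjusted p = 0.092), NDUFS7 by -0.15 (adjusted p = 0.20) and NDUFS3 by 0.14 (adjusted p = 0.19).

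The largest increases in complex I were in membrane-arm accessory subunits. NDUFA1, a single-pass membrane subunit needed for assembly of the complex, rose from 46.3, 49.1 and 51.7 TPM to 93.4, 89.3 and 102 TPM, a ratio of 1.94 (log2 difference 0.94, SE 0.068, limma adjusted p = 1.7e-05). The lowest DCBQ library was far above the highest control. NDUFB8 rose from 66.7, 90.3 and 104 TPM to 171, 159.8 and 162 TPM, a ratio of 1.89 (limma adjusted p = 0.00073). Its control libraries spread more than its DCBQ libraries, 87.1 ± 18.9 against 164 ± 6.18 TPM. NDUFB3 rose from 54.0, 53.7 and 62.7 TPM to 102, 95.6 and 105 TPM, a ratio of 1.78 (limma adjusted p = 4.5e-05). NDUFB7, whose upstream stretch with the ETS motif is shown above, rose less but evenly, from 214, 221 and 219 TPM to 269, 246 and 259 TPM (ratio 1.18, limma adjusted p = 0.0023).

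Further increases followed in NDUFS5 (ratio of means 1.73), NDUFB1 (1.61), NDUFA2 (1.58), NDUFB6 (1.56), NDUFC1 (1.40), NDUFB2 (1.37) and NDUFA12 (1.33). NDUFA7, NDUFA11, NDUFB9, NDUFS6 and NDUFAB1 rose with ratios from 1.16 to 1.25. NDUFAB1 is the mitochondrial acyl carrier protein, which also serves fatty acid and lipoate synthesis. The NDUFS6 libraries overlapped between the groups. The NDUFS6 call was lost without control library 1, control library 2, DCBQ library 1 or DCBQ library 3, and the NDUFAB1 call without control library 1, DCBQ library 2 or DCBQ library 3. Both calls were also lost with the transcript length trend removed, and the NDUFS6 call with no expression filter.

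Among accessory subunits that did not pass, NDUFA13, also known as GRIM-19, showed 226, 133 and 232 TPM in the controls and 227, 162 and 215 TPM in DCBQ. Library 2 was low in both groups. NDUFB4 gave 118, 118 and 116 TPM against 158, 106 and 163 TPM, so that DCBQ library 2 fell below the controls while the other 2 rose above them (log2 difference 0.25, limma adjusted p = 0.18). NDUFA8, NDUFA9, NDUFB10, NDUFC2 and NDUFS4 differed by -0.01 to 0.08, NDUFA5 and NDUFB11 by 0.14 each and NDUFA10 by -0.12. The readthrough gene NDUFC2-KCTD14, which overlaps NDUFC2, varied from 2.87 to 15.6 TPM with no order by group.

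The isoform pair NDUFA4 and NDUFA4L2 went in opposite directions. NDUFA4 carries a complex I symbol but is known to be a subunit of complex IV, and NDUFA4L2 is its paralog, known as a hypoxia-induced gene. NDUFA4L2 (chromosome 12, 57234903 to 57240715, minus strand) gave 8.91, 10.3 and 8.55 TPM in the controls and 0.499, 0 and 0.526 TPM in DCBQ. It was the member with the largest difference (log2 difference -2.96, SE 0.203, limma adjusted p = 1.4e-05), and no ratio is given because a DCBQ library is listed at 0. NDUFA4 rose from 31.5, 31.3 and 32.7 TPM to 35.8, 38.2 and 40.7 TPM (log2 difference 0.26, limma adjusted p = 0.011). Per 100 TPM of NDUFA4, NDUFA4L2 stood at 28.3, 33.1 and 26.2 in the controls and at 1.40, 0 and 1.29 in DCBQ.

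The other lower calls outside the complex I core were NDUFV3 and NDUFB5. NDUFV3, an accessory subunit beside the NADH site, fell from 19.2, 21.1 and 19.9 TPM to 14.8, 13.7 and 15.0 TPM (log2 difference -0.44, limma adjusted p = 0.0017), a call lost after median-of-ratios scaling (-0.21, adjusted p = 0.063) and after quantile normalization (-0.17, adjusted p = 0.12). NDUFB5 gave 63.6, 63.5 and 60.4 TPM in the controls and 29.5, 41.1 and 57.3 TPM in DCBQ, so its exposed libraries were widely spread (log2 difference -0.59, SE 0.196, limma adjusted p = 0.034). The NDUFB5 call was lost without control library 1 (adjusted p = 0.080), control library 2 (0.078), control library 3 (0.063), DCBQ library 1 (0.059) or DCBQ library 2 (0.074). It was also lost with no expression filter (0.12), after median-of-ratios scaling (0.16) or quantile normalization (0.14), and without mitochondrially encoded genes (0.084). In all, complex I had 2 lower calls without control library 1 and 3 without control library 3.

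Of the complex I genes below the expression filter, NDUFA3 was listed at 0.566, 0 and 0.251 TPM in the controls and at 0.999, 1.602 and 1.47 TPM in DCBQ. NDUFA6 was listed at 0 in 5 libraries and at 0.195 TPM in DCBQ library 2. An exact 0 in a table without counts can be a failed estimate, so these levels may not be those of the transcripts.

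**Figure D3:**
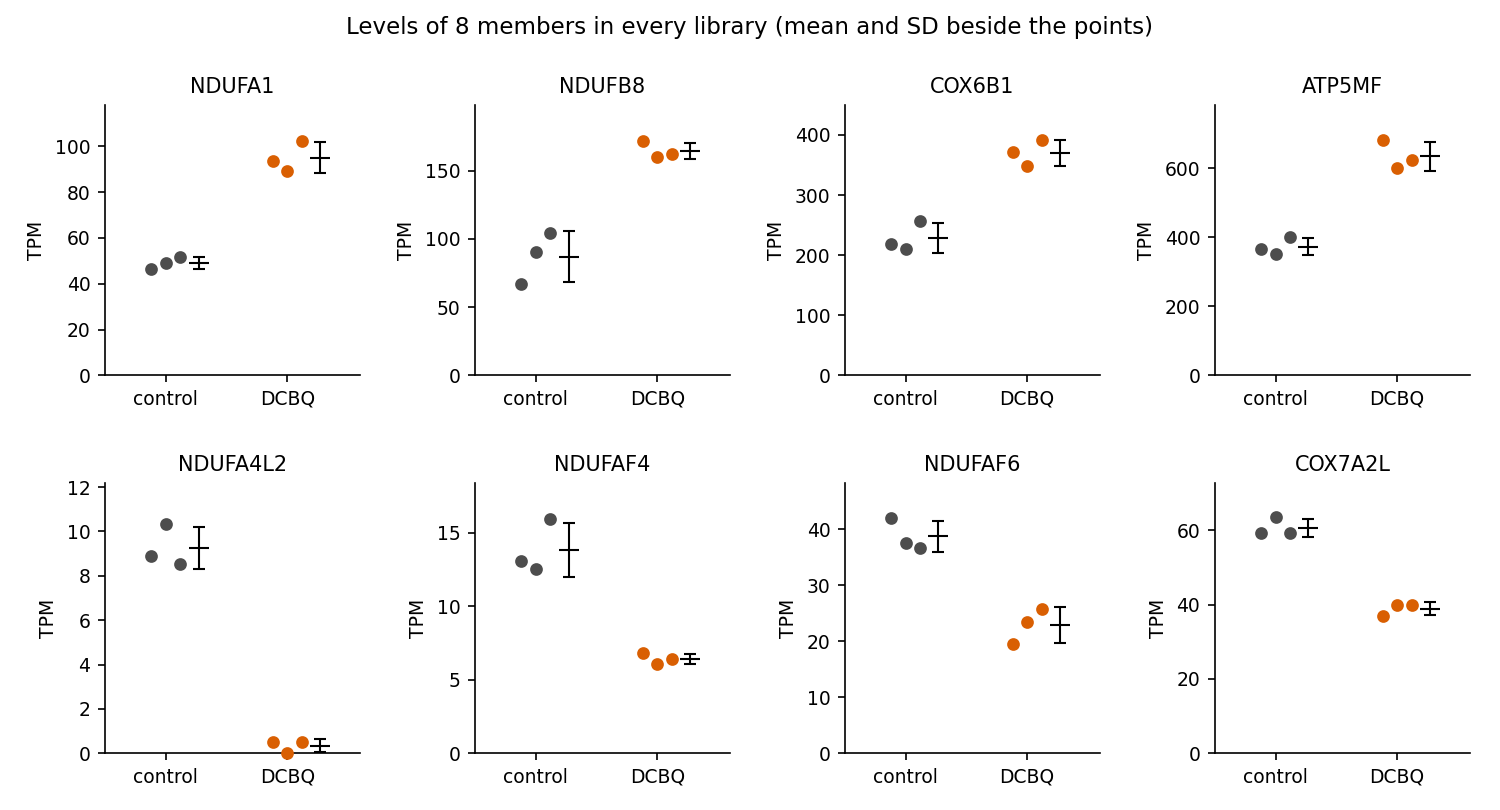
TPM of 8 members in each library (points, linear axes from 0), with the group mean and SD beside the points. NDUFA1, NDUFB8, COX6B1 and ATP5MF have every DCBQ library above every control, and NDUFA4L2, NDUFAF4, NDUFAF6 and COX7A2L have every DCBQ library below.

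The NDUFAF genes encode factors that insert cofactors, modify or join subunits and subassemblies of complex I. Most of them differed in the direction opposite to the subunit medians, which is also the direction of most called genes in the table. Their median of -0.35 differed from the -0.21 of all tested genes by -0.13, and 3 of the 8 NDUFAF genes lay above that all-gene median. Their summed level was 279, 270.2 and 285 TPM in the controls and 231, 203 and 228 TPM in DCBQ, 1.26 times lower in DCBQ. Per 100 TPM of complex I subunits it stood at 8.94, 8.94 and 8.82 in the controls and at 6.17, 5.92 and 6.04 in DCBQ, so the groups were far apart beside their SDs of 0.0685 and 0.128. The median transcript length of these 8 genes is 1665 bases against 750 for the tested subunits, although NDUFAF8, NDUFAF2 and NDUFAF3 are about as short as the subunits. With a length trend removed in each library the NDUFAF median difference was -0.36, with 1 higher and 5 lower calls.

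NDUFAF4, which acts late in assembly with NDUFAF3, gave 13.1, 12.5 and 15.9 TPM in the controls and 6.80, 6.10 and 6.39 TPM in DCBQ, 2.15 times lower (log2 difference -0.99, SE 0.113, limma adjusted p = 0.00018). Its partner NDUFAF3 fell from 88.7, 85.1 and 87.8 TPM to 69.5, 52.8 and 64.9 TPM (log2 difference -0.49, limma adjusted p = 0.0029). NDUFAF6, an early assembly factor of the phytoene synthase fold, fell from 41.9, 37.6 and 36.7 TPM to 19.5, 23.4 and 25.8 TPM, 1.69 times lower (limma adjusted p = 0.00057). In all 3 genes every DCBQ library was below every control. NDUFAF5, which hydroxylates a core subunit, fell by 0.39 and NDUFAF2, a paralog of an accessory subunit that sits on late intermediates, fell by 0.30 on the log2 scale (limma adjusted p = 0.0068 and 0.0024).

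The lower calls of NDUFAF4 and NDUFAF6 held in all 15 alternative settings. After median-of-ratios scaling NDUFAF2 differed by -0.06 (adjusted p = 0.50), NDUFAF3 by -0.24 (adjusted p = 0.11), and the group had 3 higher and 2 lower calls. After quantile normalization it had 3 of each.

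The exception was NDUFAF1, a chaperone of the membrane-arm assembly intermediate, which rose from 6.17, 6.69 and 7.52 TPM to 9.30, 9.06 and 10.6 TPM, a ratio of 1.42 (log2 difference 0.45, limma adjusted p = 0.010). NDUFAF7, which methylates a core subunit, gave 16.9, 18.3 and 17.4 TPM against 18.7, 22.1 and 19.9 TPM and did not pass (adjusted p = 0.088). NDUFAF8 gave 22.2, 21.5 and 26.1 TPM against 31.1, 22.7 and 28.8 TPM (adjusted p = 0.16). NDUFAF7 passed without DCBQ library 1 (adjusted p = 0.047) and NDUFAF8 without DCBQ library 2 (adjusted p = 0.022), which made 2 higher calls in the group each time.

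The other assembly factors of complex I, listed outside the NDUFAF symbols, had 1 higher and 3 lower calls of 11, which is 27.3% lower against 39.5% over all tested genes, and a median difference of -0.10, which is 0.11 above that of all genes. TMEM126A went from 28.2 ± 4.20 to 17.6 ± 1.93 TPM (log2 difference -0.64, limma adjusted p = 0.0029) and ECSIT from 90.1 ± 1.63 to 72.7 ± 5.46 TPM (-0.31, adjusted p = 0.0033).

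Complex III had the fewest calls and the smallest median difference of the 4 complexes in the main test. Its place by median was not kept in every setting. With the length trend removed the medians of III and I were both 0.14, and without control library 1 they were 0.18 for III and 0.17 for I. Of its 10 tested genes 3 rose and 0 fell by limma, 30% and 0% against 13.4% and 39.5% over all tested genes. The other 7 differed by -0.05 to 0.36. The increases were in small subunits. UQCR10, a small subunit next to cytochrome c1, rose from 66.5, 60.3 and 68.1 TPM to 108, 91.8 and 104 TPM, a ratio of 1.56 (log2 difference 0.63, SE 0.075, limma adjusted p = 0.00022). UQCRH, the hinge protein at the cytochrome c docking site, rose from 142, 155 and 159 TPM to 232, 211 and 225 TPM, a ratio of 1.46 (limma adjusted p = 0.00012). In both genes all DCBQ libraries lay above all controls. UQCRQ rose by 0.30 on the log2 scale (limma adjusted p = 0.014), a call lost without an expression filter and after removal of a length trend.

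The nuclear subunits that hold redox groups or form the large matrix part did not pass. UQCRC1, the most abundant member of the complex, gave 253, 254 and 253 TPM against 269, 252 and 267 TPM (log2 difference 0.05, limma adjusted p = 0.32). CYC1, cytochrome c1, gave 179, 153 and 160.0 TPM against 194, 169 and 187 TPM (0.16, adjusted p = 0.096). UQCRC2, the partner of UQCRC1, differed by 0.06 (adjusted p = 0.21). UQCRFS1, the Rieske iron-sulphur protein, gave 41.9, 39.0 and 42.9 TPM against 47.4, 44.0 and 43.3 TPM (0.12, adjusted p = 0.15). Each of these differences is small beside those of UQCR10 and UQCRH, although a direct test between genes was not made. UQCRB gave 53.1, 49.4 and 52.7 TPM against 44.8, 49.7 and 62.1 TPM, with DCBQ libraries on both sides of the controls, and UQCR11 gave 40.2, 37.2 and 39.9 TPM against 38.9, 37.6 and 36.2 TPM. UQCRHL, a near-identical copy of UQCRH with which it can share reads, stood at 1.22 ± 0.384 per 100 TPM of UQCRH in the controls and 1.17 ± 0.0756 in DCBQ. After median-of-ratios scaling or quantile normalization 9 complex III genes were higher, so the low number of calls depended on scaling.

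The complex III assembly factors had 1 higher and 5 lower calls of 9, which is 55.6% lower against 39.5% over all tested genes. Their median difference of -0.30 was close to the -0.21 of all genes. UQCC6 went from 21.4 ± 2.90 to 10.9 ± 0.747 TPM (log2 difference -0.91, limma adjusted p = 0.00027) and UQCC2 from 22.0 ± 0.718 to 14.4 ± 0.901 TPM (-0.58, adjusted p = 0.00040).

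In complex IV, 7 of 12 tested genes rose and 2 fell, 58.3% and 16.7% against 13.4% and 39.5% over all tested genes. The largest increase was in COX6B1, a subunit facing the intermembrane space that helps to hold the complex IV dimer, which rose from 219, 210.3 and 257 TPM to 371, 347 and 391 TPM. Its ratio of means was 1.62 (log2 difference 0.69, SE 0.078, limma adjusted p = 0.00017). COX7B rose from 39.8, 40.0 and 43.6 TPM to 55.8, 68.3 and 56.7 TPM, a ratio of 1.47 (limma adjusted p = 0.0010). COX6C rose from 85.2, 98.003 and 94.3 TPM to 136, 132 and 131 TPM, a ratio of 1.44 (limma adjusted p = 0.00017). For these 3 genes the lowest DCBQ library was above the highest control. COX7C and COX5B rose with ratios of 1.22 and 1.23.

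COX4I1, the ubiquitous form of the subunit that binds ATP as a regulator, gave 339, 312 and 267 TPM against 378, 364 and 373 TPM (log2 difference 0.29, limma adjusted p = 0.016), a call lost without DCBQ library 1 (adjusted p = 0.054), with no expression filter (0.067) and with the length trend removed (0.066). The most abundant member, COX6A1, gave 561, 536 and 564 TPM against 582, 539 and 547 TPM (log2 difference 0.01, adjusted p = 0.92). COX8A gave 356, 319 and 356 TPM against 381, 342 and 379 TPM (0.10, adjusted p = 0.23), and library 2 was the lowest in both groups. COX5A differed by 0.12 (adjusted p = 0.096).

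Both lower calls in complex IV were in paralogs of subunits that rose. COX7A2L, also known as SCAF1, is a COX7A relative that links complexes III and IV in supercomplexes. It fell from 59.2, 63.5 and 59.2 TPM to 36.9, 40.0 and 39.8 TPM, 1.56 times lower (log2 difference -0.63, SE 0.059, limma adjusted p = 6.6e-05), and was called in all 15 alternative settings. COX7A2, the liver-type COX7A, rose from 80.5, 73.0 and 74.8 TPM to 91.9, 98.9 and 106 TPM (log2 difference 0.37, limma adjusted p = 0.0018). Per 100 TPM of COX7A2, COX7A2L stood at 73.6, 86.9997 and 79.1 in the controls and at 40.1, 40.5 and 37.5 in DCBQ, so the groups were far apart in this ratio.

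COX6B2, the testis-type paralog of COX6B1, was low, with 5.94, 5.84 and 4.24 TPM in the controls and 2.46, 3.68 and 3.24 TPM in DCBQ (log2 difference -0.62, limma adjusted p = 0.017). Its call was lost without control library 1 (adjusted p = 0.062), control library 2 (0.060) or DCBQ library 1 (0.052), which left 1 lower call in complex IV each time. It was also lost with no expression filter (0.060), after median-of-ratios scaling (0.064) and after quantile normalization (0.057). Per 100 TPM of COX6B1 it stood at 2.71, 2.78 and 1.65 in the controls and at 0.664, 1.06 and 0.827 in DCBQ. The tissue-restricted isoforms of the other subunits were nearly absent. COX6A2, COX7B2 and COX8C were listed at 0 in every library and COX4I2 at 0 in all but control library 1 (0.102 TPM). COX7A1, the heart and muscle form, ranged from 0.453 to 0.756 TPM over the 6 libraries, with overlap between the groups.

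The complex IV assembly factors had 3 higher and 10 lower calls of 26, which is 11.5% and 38.5% and near the 13.4% and 39.5% of all tested genes. Their median difference was -0.25. COX10, which makes haem O for the complex, went from 27.1 ± 0.0281 to 16.4 ± 0.377 TPM (log2 difference -0.69, limma adjusted p = 5.9e-05). LRPPRC, which stabilises mitochondrial mRNAs, went from 95.2 ± 4.25 to 64.0 ± 2.35 TPM (-0.57, adjusted p = 7.0e-05).

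**Figure D4:**
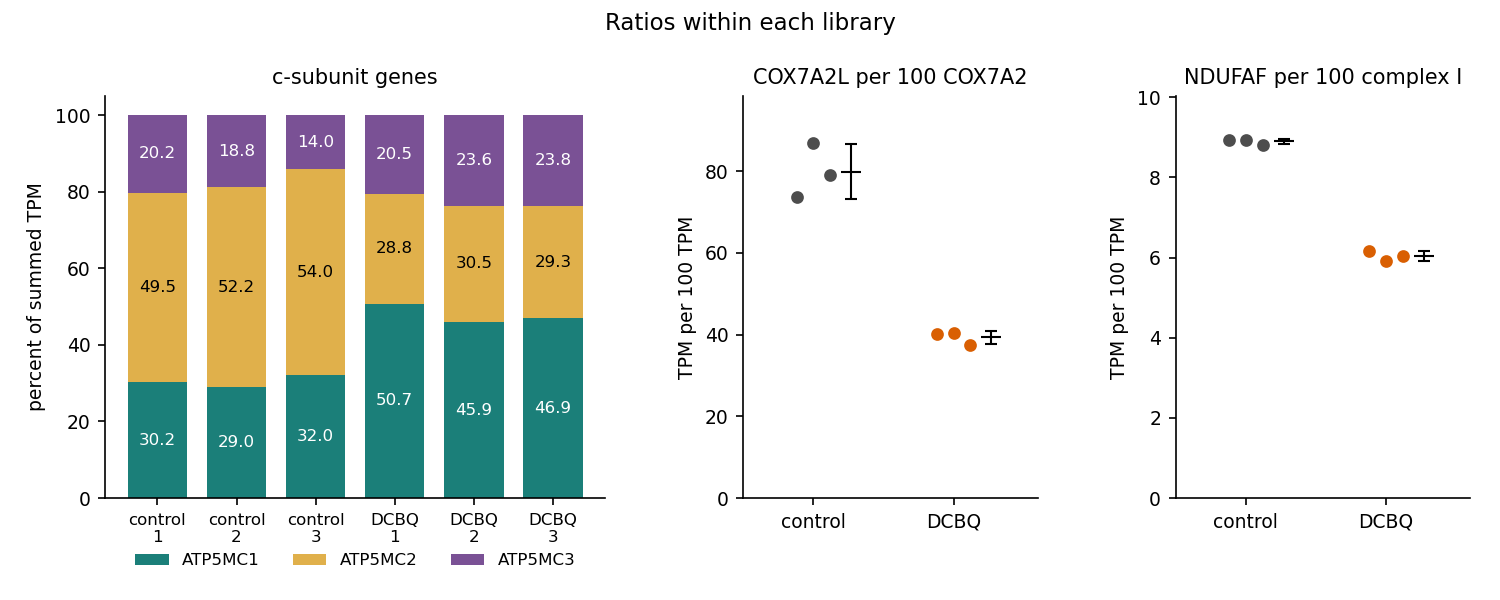
Ratios inside each library: stacked bars give the percent of summed c-subunit TPM from ATP5MC1, ATP5MC2 and ATP5MC3, and points (with mean and SD) give COX7A2L per 100 TPM of COX7A2 and NDUFAF per 100 TPM of complex I. ATP5MC1 moves from 28.99 to 32.0% of the c-subunit TPM in the controls to 45.9 to 50.7% in DCBQ.

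Complex V had the largest median difference of the 4 complexes, with 11 of 18 tested genes higher and 1 lower. That is 61.1% and 5.56%, against 13.4% and 39.5% over all tested genes. In the catalytic head, ATP5F1B, the beta subunit that carries the catalytic sites, rose from 256, 258 and 269.8 TPM to 334, 332 and 340.2 TPM, a ratio of 1.28 (log2 difference 0.36, SE 0.039, limma adjusted p = 0.00013). ATP5F1C, the rotating gamma subunit, rose by a ratio of 1.18 (limma adjusted p = 0.0090). ATP5F1A, the alpha subunit, gave 159, 99.3 and 107 TPM against 186, 127 and 130.0 TPM and did not pass (0.29, adjusted p = 0.25). Library 1 was the highest in both groups for ATP5F1A, and the groups overlapped. ATP5F1D and ATP5F1E, of the central stalk, differed by 0.13 and 0.17 and did not pass.

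In the membrane part, ATP5MF, the f subunit and the most abundant member of complex V, rose from 366, 352 and 400.2 TPM to 683, 601 and 624 TPM, a ratio of 1.71 (log2 difference 0.77, SE 0.063, limma adjusted p = 3.5e-05). ATP5ME, the e subunit, whose upstream stretch with a CRE and an NRF1 half-site is shown above, rose from 72.9, 73.4 and 71.8 TPM to 109, 111 and 119 TPM, a ratio of 1.55 (limma adjusted p = 2.5e-05). Both genes had DCBQ libraries well clear of the controls. ATP5MG and ATP5MK, which help ATP synthase dimers to form, rose with ratios of 1.27 and 1.31, and the peripheral stalk genes ATP5PF and ATP5PD with 1.38 and 1.301. ATP5PO and ATP5PB, also of the peripheral stalk, differed by 0.20 (adjusted p = 0.065) and 0.12 (adjusted p = 0.17). ATP5MJ gave 72.9, 66.8 and 97.3 TPM against 79.95, 80.6 and 82.9 TPM (0.06, adjusted p = 0.72), and it passed as higher only without control library 3 (0.21, adjusted p = 0.025).

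ATP5IF1, the small protein that inhibits ATP hydrolysis by the synthase, rose together with the catalytic subunit. It gave 127, 134 and 140.3 TPM in the controls and 187, 168 and 169.9 TPM in DCBQ, a ratio of 1.31 (log2 difference 0.38, limma adjusted p = 0.00080). Per 100 TPM of ATP5F1B it stood at 51.2 ± 1.39 in the controls and 52.2 ± 3.31 in DCBQ, which overlap. The readthrough gene ATP5MF-PTCD1 ranged from 0 to 2.17 TPM and ATP5MGL from 0 to 0.379 TPM, both below the filter.

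The 3 genes for the c subunit of the proton-driven ring changed places. ATP5MC1, ATP5MC2 and ATP5MC3 encode the same mature protein with different import sequences. ATP5MC1 (chromosome 17, 48892765 to 48895871, plus strand) rose from 80.1, 71.3 and 88.2 TPM to 175, 152 and 177 TPM, a ratio of 2.101 (log2 difference 1.06, SE 0.088, limma adjusted p = 3.5e-05). ATP5MC3 (chromosome 2, 175176258 to 175184607, minus strand) rose from 53.5, 46.2 and 38.7 TPM to 70.7, 78.2 and 89.5 TPM, a ratio of 1.72 (limma adjusted p = 0.0011). ATP5MC2 (chromosome 12, 53632726 to 53677408, minus strand) fell from 131, 128 and 149 TPM to 99.3, 101 and 110.4 TPM, 1.31 times lower (log2 difference -0.39, SE 0.069, limma adjusted p = 0.0018). None of the 3 overlapped between the groups, and only the ATP5MC2 call was lost in any alternative, after median-of-ratios scaling (-0.15, adjusted p = 0.12).

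As shares of the summed c-subunit TPM, ATP5MC1 went from 30.2, 28.99 and 32.0% to 50.7, 45.9 and 46.9%, and ATP5MC2 from 49.5, 52.2 and 54.0% to 28.8, 30.5 and 29.3%. ATP5MC2 was thus the largest contributor in every control library and ATP5MC1 in every DCBQ library. ATP5MC3 stood at 20.2, 18.8 and 14.0% and then 20.5, 23.6 and 23.8%. The summed level was 262 ± 15.1 TPM in the controls and 351 ± 23.3 TPM in DCBQ. How the deposited values divide reads between the similar coding parts of these genes is not given in the sources used here.

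The ATP synthase assembly factors had 1 higher and 1 lower call of 5, 20% each, against 13.4% and 39.5% over all tested genes. Their median difference of -0.23 was close to that of all genes. FMC1 went from 7.87 ± 1.75 to 11.3 ± 1.89 TPM (log2 difference 0.48, limma adjusted p = 0.040) and ATPAF2 from 29.8 ± 2.94 to 24.1 ± 2.82 TPM (-0.29, adjusted p = 0.041).

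Complex II, the entirely nuclear-encoded succinate dehydrogenase, had 3 higher and 1 lower call of 8 genes including its assembly factors (37.5% and 12.5%). Over all tested genes the shares were 13.4% and 39.5%. SDHA, the flavoprotein, rose from 94.8 ± 2.54 to 137 ± 14.1 TPM (log2 difference 0.52, limma adjusted p = 0.00051), and SDHC, a membrane anchor, from 79.3 ± 4.81 to 105 ± 2.57 TPM (0.41, adjusted p = 0.00048). The lower call was in the assembly factor SDHAF1. Cytochrome c and the ubiquinone synthesis genes had 2 higher and 0 lower calls of 12 by limma, PDSS2 (0.89, adjusted p = 8.1e-05) and COQ3 (0.47, adjusted p = 0.049). That is 16.7% higher, near the 13.4% of all tested genes, and 0% lower against 39.5%.

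The mitochondrially encoded partners of these subunits were also higher, with 12 of 13 mRNAs rising and 0 falling by limma, and a median difference of 0.55. That is 92.3% higher, against 13.4% of all tested genes. MT-CYB had a log2 difference of 0.76 (limma adjusted p = 6.3e-06) and MT-CO2 of 0.70 (adjusted p = 9.4e-06), and MT-ND1 was the one that did not pass (-0.05, adjusted p = 0.39). The 13 mRNAs took 16.6 to 17.5% of control TPM and 23.7 to 24.4% of DCBQ TPM, and a larger share for them leaves less of the fixed total for every nuclear gene. Within complexes the mitochondrial sum over the nuclear sum went from 8.94 ± 0.547 to 13.02 ± 0.488 for complex III, from 28.7 ± 1.00 to 34.4 ± 1.04 for IV, from 11.6 ± 0.877 to 14.1 ± 0.685 for V and from 23.2 ± 1.78 to 25.98 ± 1.47 for I. The libraries of the groups did not overlap for III, IV or V. For I they did not overlap either, but the highest control (24.884) and the lowest DCBQ library (24.886) nearly met. Mitochondrial ribosomal protein genes had 15 higher and 18 lower calls of 77 (19.5% and 23.4%), where all tested genes had 13.4% and 39.5%. The median of these ribosomal genes was -0.04, and their sums of 4685 ± 107 and 4629 ± 186 TPM overlapped.

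The genes for transcriptional regulators of the respiratory chain had 1 higher and 8 lower calls of 12 tested, which is 66.7% lower against 39.5% over all tested genes. Their median difference was -0.43 against -0.21 for all genes, a general shift that depended on scaling as given above. GABPB1, a subunit of the ETS factor also called NRF2 in this field, went from 43.3 ± 2.06 to 19.6 ± 1.08 TPM (log2 difference -1.10, limma adjusted p = 8.2e-06). PPRC1, a coactivator related to PGC-1alpha, went from 74.4 ± 2.82 to 44.0 ± 2.44 TPM (-0.74, adjusted p = 3.0e-05). NRF1, which was named after its value was seen, went from 28.8 ± 4.37 to 15.1 ± 2.24 TPM (-0.89, adjusted p = 0.00089). The 1 higher call was ESRRA (0.28, limma adjusted p = 0.0054). TFB1M, GABPA and TFAM did not pass (-0.37, -0.19 and -0.02, limma adjusted p = 0.052, 0.21 and 0.83).

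Promoters from 250 bases before to 50 after the RefSeq start were found for 76 of the 95 members. The NRF1 half-site GCATGCGC, on either strand, was in 17.1% of them, against 4.26% of 15843 protein-coding promoters of the same length. The ETS motif CCGGAAG was in 25% against 14.2%, the YY1 motif AAGATGGC in 13.2% against 3.91%, the CRE TGACGTCA in 5.26% against 2.59% and the SP1 motif GGGCGG in 57.9% against 58.5%. Among 33 members with a higher call, 11 with a lower call and 27 tested without a call, the NRF1 half-site was in 15.2%, 27.3% and 14.8%, and the ETS motif in 36.4%, 18.2% and 18.5%. The YY1 motif was in 6.06%, 0% and 22.2%. A match is a description of these letters and was not tested for binding.

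Transcript length moved with the differences and is given beside the results. The tested members have a median transcript length of 757 bases against 2103 for all tested genes. Over 12554 tested nuclear protein-coding genes, length and log2 difference had a Spearman coefficient of -0.19, and over the 86 members -0.50, which are descriptions across genes that share the same 6 libraries. Nuclear protein-coding genes under 750 bases had a median difference of 0.02, and those of 5000 bases and over -0.37. The 40 members under 750 bases had a median of 0.36, and 34 of them lay above the median of genes of their own length class. From 750 to under 1000 bases the members' median was 0.26 (16 genes) against -0.10, and 14 lay above it. From 1000 to under 1500 bases it was -0.03 (10 genes) against -0.12. With a length trend removed in each library, 37 members were higher and 16 lower, and the median over members was 0.17.

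**Figure D5:**
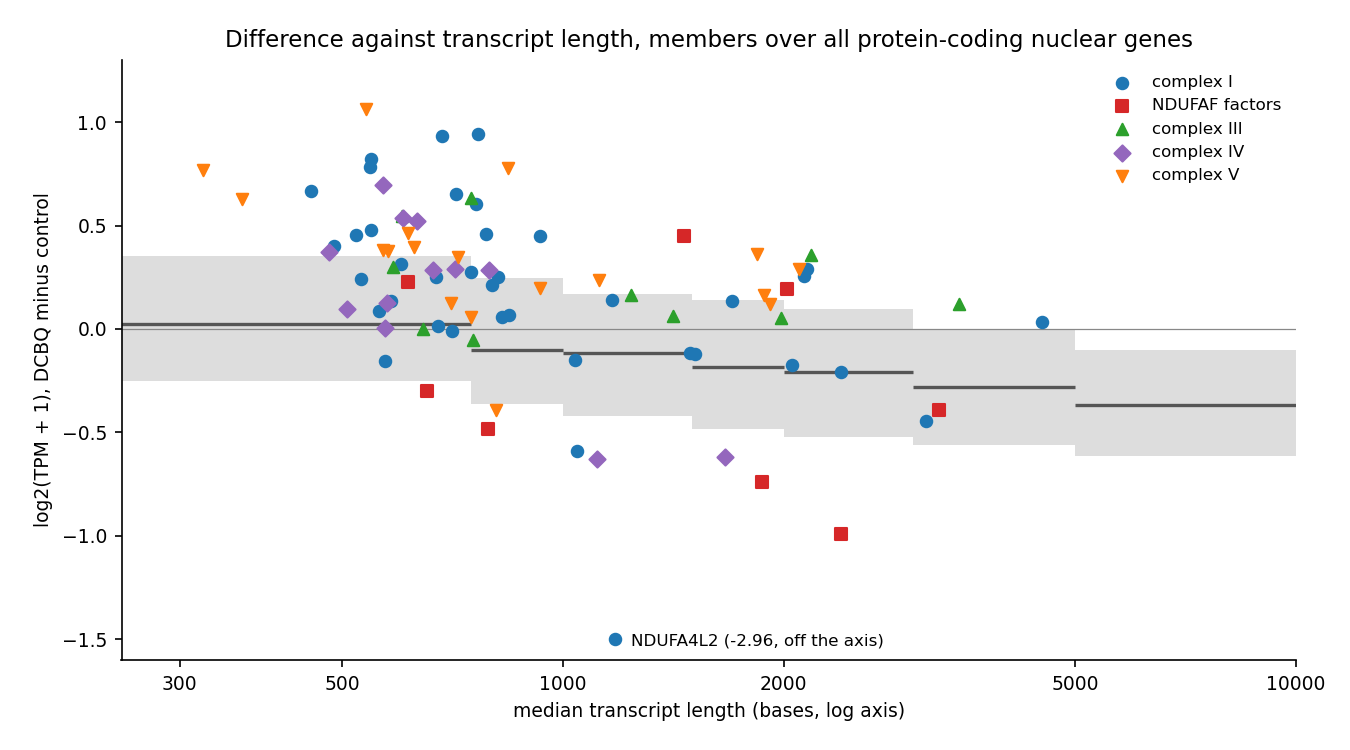
Log2 difference (DCBQ minus control) against transcript length (bases, log axis) for the tested members, with the median (line) and quartiles (grey) of nuclear protein-coding genes in each length class and NDUFA4L2 drawn at the lower edge. The class medians run from 0.02 under 750 bases to -0.37 at 5000 bases and over, and 34 of the 40 shortest members lie above their class median.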

How the data were processed

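RNA of 6 SV-HUC-1 libraries was poly(A)-selected, per the labels' protocols. The authors deposited 1 table of TPM, already scaled for length and library total. Reads were handled on build hg38 with HISAT2 2.2.1, StringTie 2.1.7, DESeq2 1.34.0, Trimmomatic 0.38 and FastQC among the tools, per the submitters' processing notes. The tool behind the TPM, its annotation, and its treatment of strand and multi-mapped reads were not given in the sources used here, so copies, readthrough and overlapping genes can share reads.

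A name table matched 60370 Ensembl identifiers to symbols, and GENCODE 29 named another 230. Gene coordinates are those of GENCODE 29 on GRCh38, and transcript lengths were available for 99.1% of tested genes. The test was limma 3.58.1 in R 4.3.3 on log2(TPM + 1), for genes averaging 1 TPM or more (eBayes with a variance trend, group as the only term, two-sided, Benjamini-Hochberg over 16734 genes). Differences on this scale understate the change of low genes. On simulated data for this comparison, with 16734 genes, the test recovered 37% of changes of 0.5 and 74% of changes of 1 (log2), with 10 of 121 calls on unchanged genes. The simulation changed 100 genes by each amount, while 52.9% of genes were called in these data. Its recovery therefore need not be that of the test reported here. Lists were described by counts and medians, and sums and ratios by value per library.

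The members, lists and tests were chosen with earlier results of these data known. The text names, in each group, the 3 largest and 3 smallest differences, the 2 most abundant members, isoform pairs, ATP5IF1, calls against the group's direction, untested members and the 2 smallest p-values of each companion list. The values of 1 member that this rule names are not reported here. Other genes named were chosen after their values were seen. Alternatives were pseudocounts of 0.1 and 5, no filter or a mean of at least 5 TPM, 3 other scalings, removal of a length trend, a replicate block and each library left out. No library equalled another, and the study's methylation data were not analysed here.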

Additional observations from a re-analysis of the deposited data

How the results depend on the processing

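The median of each group kept its sign in all 15 alternatives, and no member called in the main test was called in the opposite direction in any of them. Of 40 higher calls 36 held in all of them, and of 14 lower calls 4 did (NDUFA4L2, NDUFAF4, NDUFAF6 and COX7A2L). NDUFA4L2 and COX6B2 could not be fitted at a mean of at least 5 TPM. After median-of-ratios scaling, complex I had 1 lower call and a median of 0.47, NDUFAF 3 higher and 2 lower and -0.11, complex III 9 higher and 0.38, complex IV 1 lower and 0.53, complex V 0 lower by limma and 0.60, and all genes 3995 higher, 3861 lower and -0.0039. The values after quantile normalization were 1 lower and 0.34 for I, 3 higher, 3 lower and -0.10 for NDUFAF, 9 higher and 0.28 for III, 1 lower and 0.35 for IV, 0.42 for V, and 3814 higher, 3966 lower and -0.011 for all genes. Without mitochondrially encoded genes they were 2 lower and 0.36 for I, 3 higher and -0.22 for NDUFAF, 7 higher and 0.27 for III, 0.42 for IV, 0.49 for V and -0.10 for all genes. With no expression filter, I had 3 lower, IV 1 lower and a median of 0.20, and all genes -0.061. At a mean of at least 5 TPM, IV had 1 lower. A pseudocount of 5 gave a median of -0.14 over all genes. Removing the length trend gave medians of 0.14 for I, 0.14 for III, 0.20 for IV and 0.29 for V.

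Leaving out each library gave 16 to 20 higher, 2 to 5 lower and medians of 0.17 to 0.23 in I, 1 to 2 higher, 5 lower and -0.40 to -0.30 in NDUFAF, 3 to 4 higher and 0.10 to 0.18 in III, 6 to 8 higher, 1 to 2 lower and 0.25 to 0.31 in IV, and 11 to 14 higher and 0.34 to 0.38 in V. Over all genes it gave 1883 to 2123 higher, 5675 to 6443 lower and -0.24 to -0.20. Single differences changed sign for NDUFS1 (0.028), NDUFS8 (0.088) and UQCR11 (0.18) after median-of-ratios scaling, for NDUFS1 (0.076) and UQCR11 (0.19) after quantile normalization, and for UQCR11 without mitochondrially encoded genes (0.076). They also did for UQCRB (-0.084), COX6A1 (-0.082) and ATP5MJ (-0.025) with the length trend removed, for the same genes without control library 2 (-0.032, -0.017 and -0.054), for COX6A1 without DCBQ library 1 (-0.028) and for UQCRB without DCBQ library 3 (-0.13). Over the 6 fits that each left out 1 library, COX6A1 ran from -0.028 to 0.028 and ATP5MJ from -0.054 to 0.214. UQCR11, UQCRB, COX6A1 and ATP5MJ did not pass in the main test. The cause of these changes was not tested.

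Across all tested genes same-numbered libraries did not deviate together (correlations of -0.037, 0.045 and 0.046), so the numbers were not taken to pair them. The members alone were not tested for this, and their sums were lowest in library 2 of both groups in each complex. With the replicate block, 43 members were higher and 13 lower, with 18 and 5 in I, 1 and 5 in NDUFAF, 4 and 0 in III, 7 and 2 in IV and 13 and 1 in V, and 2156 and 6344 over all genes. Depth is unknown, and TPM below the filter limits what can be said of the 9 untested members.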
